A study of Mus musculus with 16 samples.

Results

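The striatal projection neuron genes described here were 8 of the 40481 genes in the deposited count table, taken by symbol: Drd1, Drd2, Adora2a, Ppp1r1b, Rgs9, Pde10a, Gpr6 and Syndig1l. RNA was sequenced from brain tissue of 16 male C57BL/6J mice, aged 18 months on arrival. Of these, 8 had received adropin, a secreted peptide hormone encoded by Enho, by daily intraperitoneal injection at 90 nmol/kg/d, and 8 had received the saline diluent, which also held bovine serum albumin. Injections began after 2 weeks of acclimation, ran for 2 weeks before behavioural testing and went on during it, and all mice were fasted for 6 h before the tissue was snap frozen. The study had 15 mice in each group, and each sequenced library came from 1 mouse. The brain region is not given in the sources used here, and neither is the meaning of the number pairs that label the mice (such as 5_3) and name them below.

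The striatum is the main input station of the basal ganglia, and most of its neurons are GABAergic projection neurons. Those of the direct pathway carry the dopamine receptor encoded by Drd1, which raises cyclic AMP, and those of the indirect pathway carry the dopamine receptor encoded by Drd2, which lowers it, together with the adenosine receptor encoded by Adora2a and the orphan receptor encoded by Gpr6. Both kinds use Ppp1r1b, an inhibitor of protein phosphatase that is controlled by protein kinase A, Pde10a, a phosphodiesterase that degrades cyclic nucleotides, and Rgs9, which shortens G protein signals. Syndig1l encodes a membrane protein related to the synapse differentiation factor encoded by Syndig1 and is best known from the caudate and putamen. In bulk tissue, fewer striatal neurons and less RNA per neuron cannot be told apart.

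The genes lie on 6 chromosomes of GRCm38. Drd1 is on chromosome 13 from 54051183 to 54055705 (minus strand) and Drd2 on chromosome 9 from 49340627 to 49408177 (plus strand). Adora2a is on chromosome 10 from 75316877 to 75334784 (plus strand) and Gpr6 on the same chromosome from 41069977 to 41072285 (minus strand). Ppp1r1b is on chromosome 11 from 98348404 to 98357796 (plus strand). Rgs9 is also on chromosome 11, from 109225355 to 109298129 (minus strand). Pde10a is on chromosome 17 from 8525372 to 8986648 (plus strand) and Syndig1l on chromosome 12 from 84677277 to 84698831 (minus strand). The use of strand in counting is not given in the sources used here. Ppp1r1b shares 460 exon bases with 1700003D09Rik and Syndig1l shares 177 with Gm48573, both on the opposite strand, so their counts may hold reads of these neighbours.

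Promoter sequences from RefSeq (GRCm38.p6) were found for 5 of the 8 genes, Drd1, Drd2, Gpr6, Rgs9 and Pde10a, and not for Adora2a, Ppp1r1b and Syndig1l. Those of the dopamine receptors and of Gpr6 are shown because these genes mark the direct and the indirect pathway. Each runs from 250 bases before to 50 bases after the annotated start, in the direction of transcription, with matches to the GC box GGGCGG and to the cyclic AMP response element TGACGTCA, on either strand, in capitals.
Drd1, chr13:54055609-54055908, minus strand: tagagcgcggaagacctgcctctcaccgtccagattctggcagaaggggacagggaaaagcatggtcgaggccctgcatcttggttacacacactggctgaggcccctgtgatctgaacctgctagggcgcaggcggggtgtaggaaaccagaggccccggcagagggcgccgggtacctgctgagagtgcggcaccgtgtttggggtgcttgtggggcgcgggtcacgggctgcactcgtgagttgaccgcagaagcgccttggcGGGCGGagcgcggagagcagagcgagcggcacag
Drd2, chr9:49340153-49340452, plus strand: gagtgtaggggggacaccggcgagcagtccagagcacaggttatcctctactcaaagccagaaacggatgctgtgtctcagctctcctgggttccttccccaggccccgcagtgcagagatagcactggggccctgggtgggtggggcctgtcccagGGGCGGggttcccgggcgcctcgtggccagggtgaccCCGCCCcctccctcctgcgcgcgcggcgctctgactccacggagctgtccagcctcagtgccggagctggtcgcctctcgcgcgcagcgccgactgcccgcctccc
Gpr6, chr10:41072241-41072540, minus strand: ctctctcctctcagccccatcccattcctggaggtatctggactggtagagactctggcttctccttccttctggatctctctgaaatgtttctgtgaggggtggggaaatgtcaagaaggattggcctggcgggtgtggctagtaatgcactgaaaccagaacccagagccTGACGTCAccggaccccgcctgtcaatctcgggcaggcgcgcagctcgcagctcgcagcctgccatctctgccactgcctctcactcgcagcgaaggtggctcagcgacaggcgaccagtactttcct
The Drd2 sequence held 2 GC boxes with 70.3% G and C, and the Drd1 sequence held 1 with 65.7%. A second annotated start of Drd1 has the window chr13:54054731-54055030, not shown, with 1 GC box and 59.3% G and C. The Gpr6 sequence held no GC box and 1 cyclic AMP response element. Over the 32851 promoters of the same length, 35.66% held the GC box and 1.79% the cyclic AMP response element, and the median content of G and C was 52.67%. These matches are descriptions of the letters in these windows.

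All 8 genes were detected in every mouse. Library totals ran from 35026503 to 70314050 counts, and the fewest reads for any of the genes in any mouse were 26, for Drd2, so that counting error weighs most there. Levels below are CPM, counts scaled to library size with TMM factors, and levels are compared between genes only per kilobase of exon. On that scale Ppp1r1b had the highest mean, 29.0 ± 5.93 CPM per kilobase (SD, n = 16), and exceeded Pde10a, the next, in 16 of 16 mice. Pde10a (4.39 ± 1.06) and Syndig1l (3.99 ± 1.46) were closer than their spread, and Pde10a was the higher of them in 10 mice. Drd1 (2.44 ± 0.673) and Rgs9 (2.33 ± 0.714) likewise did not differ beyond their spread, nor did Adora2a (1.70 ± 1.65) and Gpr6 (1.56 ± 0.432). Drd2 had the lowest level, 0.806 ± 0.687 CPM per kilobase, and lay below Gpr6 in 15 of 16 mice.

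Markers of other sources that brain tissue could hold also varied between mice. The summed level of 5 oligodendrocyte genes ranged from 2580.94 to 7653.98 CPM in saline-treated mice, and that of 7 choroid plexus genes from 13.5 to 2470 CPM, where the highest value belonged to mouse 8_3 and the median was 21.3. The same library stood apart for other regions: its summed cerebellum genes reached 505 CPM, beside 52.3 CPM in the next highest mouse. Its midbrain dopamine sum (20.7 CPM) was also the highest of the 16, beside 14.2 CPM in the next. Its thalamus (288 CPM) and oligodendrocyte sums were the highest too, but beside 249 CPM in mouse 2_3 and 7612 CPM in mouse 7_4. By the mean z-score, which weights the genes of a list equally, both of those lists ranked 2 in mouse 8_3. Markers of cortex were abundant in both groups, with Slc17a7, the main vesicular glutamate transporter of cortical neurons, at 1951 ± 99.98 CPM with adropin and 1862 ± 226 CPM with saline (SD, n = 8 each). The cholinergic marker Chat, which defines a class of striatal interneurons, averaged 0.354 CPM in adropin-treated and 0.665 CPM in saline-treated mice and was below the filter on low counts. Reads of the 8 genes and of Slc17a7 were found in every library, and the amount of striatum in each library was not tested.

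Adropin-treated and saline-treated mice were compared to ask whether daily adropin changed these genes in the aged brain. No difference in any of the 8 genes passed the test. With the quasi-likelihood test of edgeR, Benjamini-Hochberg adjusted over 14949 genes, 0 of the 8 had an adjusted p below 0.05, and 0 had an unadjusted p below 0.05, where 3.99% of all genes tested did. DESeq2 and limma-voom also gave 0 of the 8 at an adjusted p below 0.05. The background at the adjusted threshold was 0% of all genes with edgeR, and 5 genes passed it with DESeq2. None of the 8 passed the study's cut-off, a fold change above 1.5 with an unadjusted p below 0.05, which 0.421% of all genes passed. The ranges of the groups overlapped for each of the 8, and across all genes tested the groups did not overlap for 0.00669%. With the mean level of the shared projection neuron list, which holds none of the 8, as a covariate, 0 of the 8 had an unadjusted p below 0.05, and the log2 fold changes were 0.28 for Drd1, -0.023 for Drd2, -0.20 for Adora2a, -0.062 for Ppp1r1b, 0.13 for Rgs9, 0.25 for Pde10a, 0.060 for Gpr6 and -0.30 for Syndig1l. Of the 8 log2 fold changes, 4 were above and 4 below zero, with a median of -0.01 beside -0.0019 over all genes.

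Among the receptors, Drd1 ranged from 6.17 to 12.3 CPM with adropin (median 8.85) and from 4.51 to 12.8 CPM with saline (median 7.82). The highest and the lowest Drd1 levels were both in saline-treated mice, 5_3 and 8_3. The log2 fold change of Drd1 for adropin against saline was 0.21 with a standard error of 0.18 (95% interval -0.18 to 0.60, adjusted p = 0.874, edgeR with Benjamini-Hochberg adjustment). Without mouse 8_3 it was 0.12, and without mouse 5_3 it was 0.34.

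Drd2 ranged from 0.917 to 4.99 CPM with adropin (median 1.33) and from 0.563 to 7.16 CPM with saline (median 1.39). In each group a single mouse stood far above the others, mouse 7_4 with adropin and mouse 5_3 with saline. For Drd2 the log2 fold change was -0.28 with a standard error of 0.46 (95% interval -1.25 to 0.68, adjusted p = 0.898, edgeR with Benjamini-Hochberg adjustment). Without mouse 5_3 it was 0.27, so its sign rested on that mouse, and by limma-voom it was -0.081.

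Adora2a, which encodes the adenosine receptor that opposes Drd2 signalling in indirect pathway neurons, had the same pair of high mice. It ranged from 1.77 to 11.7 CPM with adropin (median 2.65) and from 1.96 to 21.0 CPM with saline (median 2.98), with mice 7_4 and 5_3 again at the top. The log2 fold change of Adora2a was -0.53 with a standard error of 0.50 (95% interval -1.58 to 0.53, adjusted p = 0.876, edgeR with Benjamini-Hochberg adjustment), and without mouse 5_3 it was 0.11, and by limma-voom, with all mice, -0.32. The interval of Drd2 includes a fold change of 1.5 in either direction, those of Adora2a and Syndig1l include one of 1.5 downwards and that of Drd1 just reaches one of 1.5 upwards, so that changes of this size were not excluded.

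Gpr6, a constitutively active receptor that raises cyclic AMP, ranged from 1.85 to 3.69 CPM with adropin (median 3.01) and from 1.43 to 3.66 CPM with saline (median 2.76). Its groups covered nearly the same range and no mouse stood apart. For Gpr6 the log2 fold change was 0.05 with a standard error of 0.20 (95% interval -0.38 to 0.48, adjusted p = 0.964, edgeR with Benjamini-Hochberg adjustment).

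**Figure D1:**
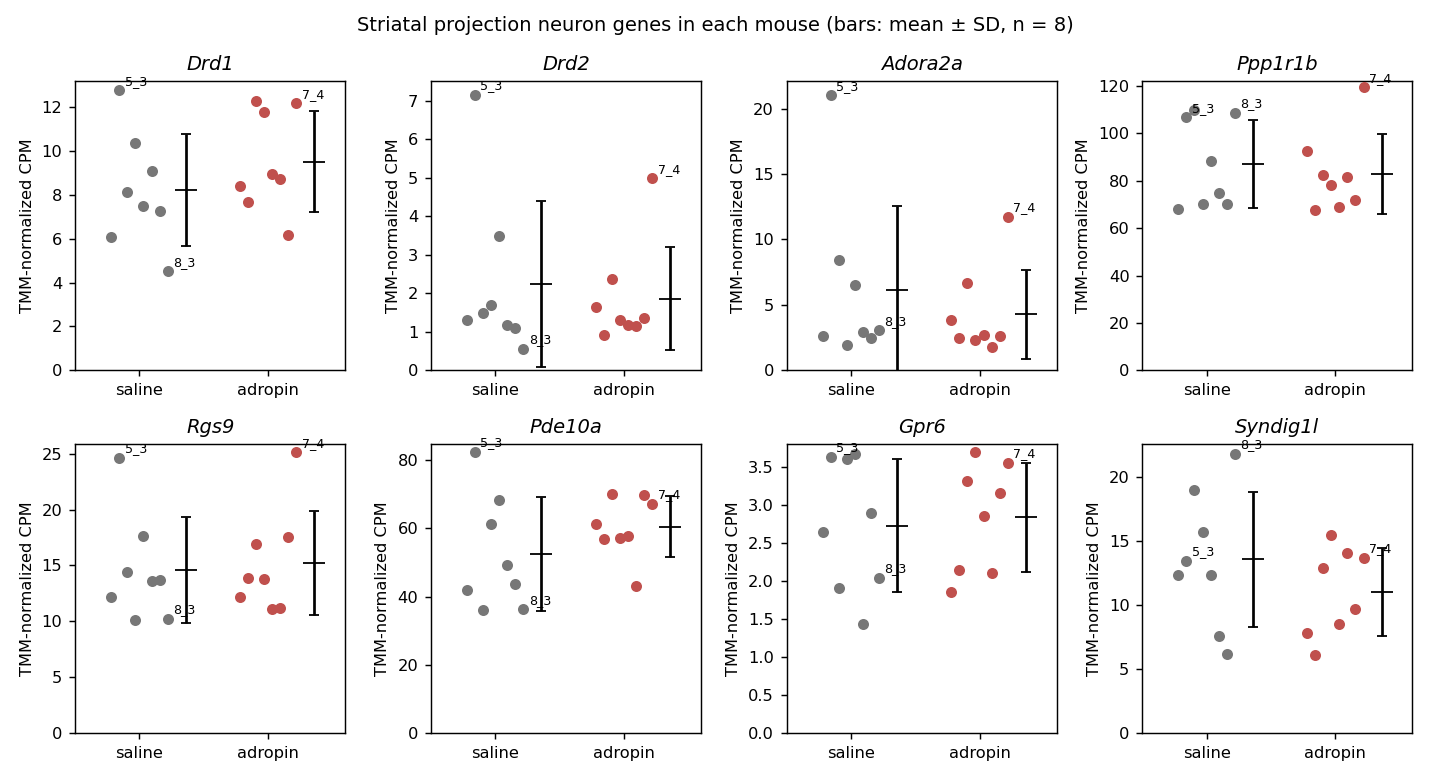
TMM-normalized CPM of the 8 genes in each of 8 saline-treated (grey) and 8 adropin-treated (red) mice, with the group mean and SD in black (the lower bar of Adora2a in saline ends below the axis). Points for the 2 groups overlap in every panel, and for Drd2 and Adora2a mouse 5_3 of the saline group and mouse 7_4 of the adropin group lie above all others.

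Among the signalling proteins inside the cell, Ppp1r1b ranged from 67.9 to 119 CPM with adropin (median 80.1) and from 67.9 to 110 CPM with saline (median 81.7). The 4 highest mice, 7_4, 5_4, 8_3 and 5_3, came from both groups. The log2 fold change of Ppp1r1b was -0.07 with a standard error of 0.13 (95% interval -0.35 to 0.21, adjusted p = 0.909, edgeR with Benjamini-Hochberg adjustment). It was -0.16 without mouse 7_4 and -0.016 without mouse 5_3.

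Pde10a ranged from 43.2 to 70.1 CPM with adropin (median 59.6) and from 36.04 to 82.5 CPM with saline (median 46.5). The saline group held both extremes, and its spread was the larger, with an SD of log2 CPM of 0.44 beside 0.23 with adropin, a difference that was not tested. The log2 fold change of Pde10a was 0.21 with a standard error of 0.16 (95% interval -0.13 to 0.54, adjusted p = 0.874, edgeR with Benjamini-Hochberg adjustment). Without saline-treated mouse 5_3 it was 0.34 with an unadjusted p of 0.0238, the only case in which leaving out 1 mouse brought one of the 8 genes below an unadjusted 0.05.

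Rgs9 ranged from 11.1 to 25.1 CPM with adropin (median 13.8) and from 10.1 to 24.7 CPM with saline (median 13.6). Mice 7_4 and 5_3 headed their groups once more, at nearly the same level. For Rgs9 the log2 fold change was 0.06 with a standard error of 0.19 (95% interval -0.34 to 0.46, adjusted p = 0.950, edgeR with Benjamini-Hochberg adjustment).

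Syndig1l ranged from 6.07 to 15.4 CPM with adropin (median 11.3) and from 6.20 to 21.8 CPM with saline (median 12.9). Its highest mouse was 8_3, the mouse in which Drd1 and Drd2 were lowest and the choroid plexus genes highest, and the part of that tissue in the Syndig1l level was not tested. For Syndig1l the log2 fold change was -0.30 with a standard error of 0.24 (95% interval -0.80 to 0.20, adjusted p = 0.874, edgeR with Benjamini-Hochberg adjustment). Without mouse 8_3 it was -0.17.

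**Figure D2:**
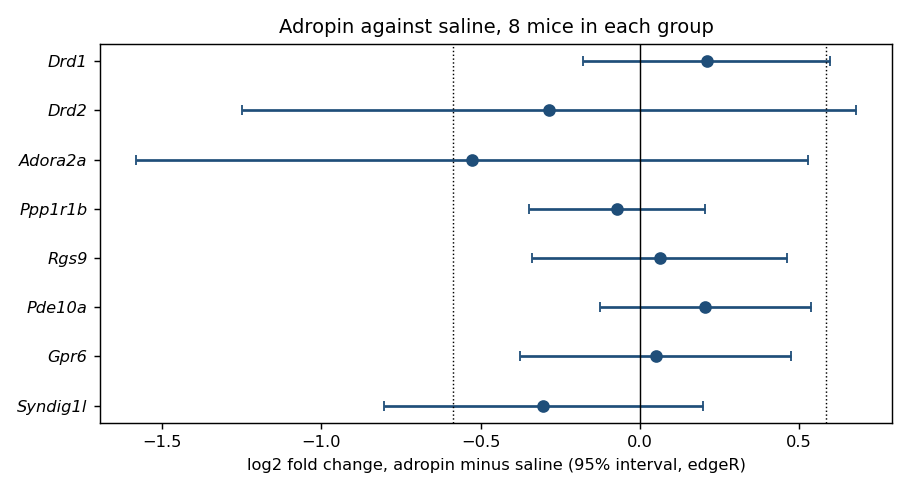
Log2 fold change of each gene, adropin minus saline, with its 95% interval from edgeR (horizontal axis), the solid line at 0 and dotted lines at a fold change of 1.5 in either direction. Each interval includes 0, and those of Drd2 and Adora2a are the widest.

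Ratios of receptors within a mouse were compared to ask whether the balance of direct and indirect pathway genes differed with treatment. The log2 ratio of Drd1 to Drd2 was 2.501 ± 0.61 with adropin and 2.20 ± 0.80 with saline (SD over 8 mice, p = 0.401 by a two-sided exact permutation test). That of Drd1 to Adora2a was 1.399 ± 0.75 and 0.84 ± 1.02 (exact permutation p = 0.233), and that of Drd2 to Adora2a was -1.10 ± 0.30 and -1.36 ± 0.75 (exact permutation p = 0.390). Adjusted over the 3 ratios, each exact permutation p was 0.401. The ratios were calculated from log2 CPM with a prior count of 2. The difference between groups, adropin minus saline, was 0.30 for Drd1 to Drd2, 0.55 for Drd1 to Adora2a and 0.25 for Drd2 to Adora2a, each smaller than the larger SD. Leaving out single mice moved these differences to between 0.105 and 0.475, 0.332 and 0.773, and 0.0947 and 0.417, in that order.

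The 8 genes differed between mice of the same group more than most genes did. The SD of log2 CPM within groups had a median of 0.43 over the 8 and of 0.20 over the 14949 genes tested. All 8 lay above the median of all genes, 6 lay above the value that 10% of all genes exceed (0.40), and 3 above the value that 5% exceed (0.48). Adora2a had an SD of 1.04 and Drd2 one of 0.94, at percentiles 99.8 and 99.7 of all genes. Syndig1l followed at 0.55, Gpr6 at 0.44, and Rgs9 and Drd1 at 0.41 each. Pde10a had 0.35 and Ppp1r1b, the most abundant, 0.29, at percentile 75.3. Low counts alone widen a log2 SD, so edgeR's biological coefficient of variation, which leaves counting error out, is given too: it was 66.9% for Adora2a, 61.3% for Drd2 and 18.8% for Ppp1r1b, with a median of 13.6% over all genes. Some marker lists of other regions and cells had a higher median SD of log2 CPM within groups than the 8 genes. These were hypothalamus (1.06, 2 genes tested), choroid plexus (0.996), cerebellum (0.81, 3 genes tested), hippocampus (0.74), olfactory bulb (0.655, 2 genes tested) and oligodendrocytes (0.45). The other lists had lower medians, from 0.15 for dopamine and cyclic AMP signalling to 0.39 for the direct pathway. A spread of this size was thus not particular to the 8 genes.

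**Figure D3:**
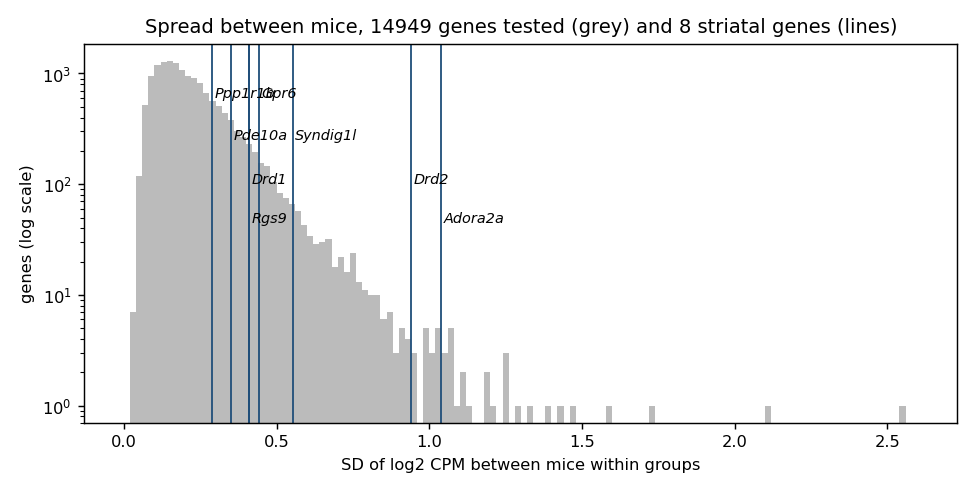
Number of genes (vertical axis, log scale) by the SD of log2 CPM between mice within groups (horizontal axis) for the 14949 genes tested, with a line for each of the 8 striatal genes. All 8 lines lie to the right of the median of all genes, 0.20, and Drd2 and Adora2a lie far out at 0.94 and 1.04.

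The highest values were concentrated in a pair of mice. Saline-treated mouse 5_3 was the highest of 16 for Drd1, Drd2, Adora2a and Pde10a, and adropin-treated mouse 7_4 for Ppp1r1b and Rgs9. Both lay above the median of the 16 mice for 8 of the 8 genes, as did adropin-treated mouse 2_4. At the other end saline-treated mouse 2_3 lay above the median for 0 of the 8, and mice 2_1 of the adropin group and 8_1 of the saline group for 1 each. Saline-treated mouse 8_3 was mixed, the lowest for Drd1 and Drd2, the highest for Syndig1l and the third highest for Ppp1r1b. The totals of mice 5_3 (44465947) and 7_4 (35857014) were within the range of the others. With both 5_3 and 7_4 left out, an alternative chosen after seeing the data, the SD of Drd2 fell to 0.61, that of Adora2a to 0.70 and that of Rgs9 to 0.28, and those of Gpr6 (0.44) and Syndig1l (0.58) were as large as before.

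**Figure D4:**
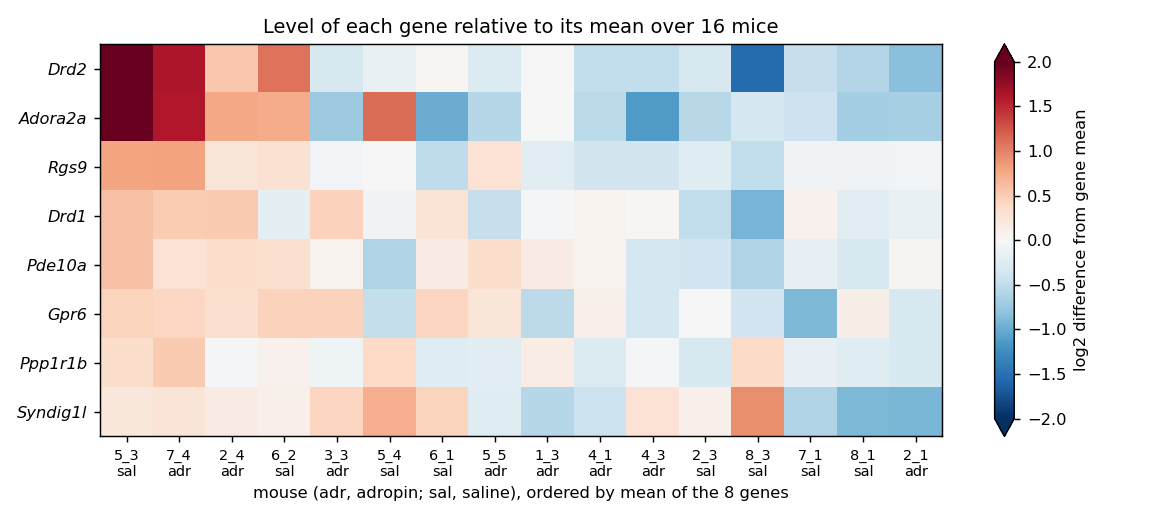
Log2 difference of each gene (rows) from its own mean over 16 mice (columns, ordered by the mean of the 8 genes), red for higher and blue for lower; the colour scale ends at 2 in each direction. Mice 5_3 and 7_4 at the left are red for all 8 genes, and mouse 8_3 is deep blue for Drd2 and red for Syndig1l.

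Whether the 8 genes moved together between mice was examined over the 28 pairs, with group means subtracted. Of the 28 Pearson correlations 27 were above zero, with a median of 0.481. Permutation p-values adjusted over the 28 pairs were below 0.05 for 8 pairs by Pearson's r and for 5 pairs by Spearman's rho, and those 5 were among the 8. The Pearson count did not hold without mice 5_3 and 7_4: with both left out, 0 pairs had an adjusted Pearson p below 0.05.

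The strongest pair was Adora2a and Rgs9 (r = 0.846, permutation p = 0.00012, adjusted p = 0.00149; rho = 0.685, p = 0.00434, adjusted p = 0.0353; 16 mice). Without the 2 mice farthest from the median, 5_3 and 7_4, its r was 0.609. Drd2 and Rgs9 (r = 0.841, permutation p = 1e-04, adjusted p = 0.00149; rho = 0.574, p = 0.0233, adjusted p = 0.0817) gave 0.585 without the same mice. Drd2 and Adora2a, which are expressed in the same neurons, had r = 0.836 (permutation p = 0.00016, adjusted p = 0.00149; rho = 0.659, p = 0.00704, adjusted p = 0.0394) and 0.566 without them.

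Of the 8 pairs past the threshold, the pair with the highest r without its 2 farthest mice was Drd2 and Pde10a (r = 0.783, permutation p = 3e-04, adjusted p = 0.0021; rho = 0.729, p = 0.00193, adjusted p = 0.027), with r = 0.721 when 5_3 and 7_4 were left out. Adora2a and Ppp1r1b had r = 0.751 (permutation p = 0.00118, adjusted p = 0.00661; rho = 0.735, p = 0.00168, adjusted p = 0.027) and 0.598 without them. Drd1 and Drd2, the markers of the opposing pathways, had r = 0.706 (permutation p = 0.00188, adjusted p = 0.00877; rho = 0.621, p = 0.0116, adjusted p = 0.0544), and r = 0.440 without mice 5_3 and 8_3, so that much of this relation rested on those mice.

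The remaining pairs past the threshold by Pearson's r were Rgs9 and Pde10a (r = 0.640, permutation p = 0.00721, adjusted p = 0.0273; rho = 0.453, p = 0.0794, adjusted p = 0.171) and Pde10a and Gpr6 (r = 0.637, permutation p = 0.00781, adjusted p = 0.0273; rho = 0.674, p = 0.00504, adjusted p = 0.0353). Without the 2 farthest mice, r was 0.468 for Rgs9 and Pde10a (5_3 and 7_4) and 0.523 for Pde10a and Gpr6 (5_3 and 6_2). With 5_3 and 7_4 left out instead, Pde10a and Gpr6 had r = 0.576. Syndig1l passed with none of the other 7 genes. Its r was 0.569 with Ppp1r1b (permutation p = 0.0218, adjusted p = 0.061; rho = 0.535, p = 0.0344, adjusted p = 0.0986) and between -0.127 and 0.258 with the others. Ppp1r1b had r = 0.0547 with Pde10a and 0.0018 with Gpr6.

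**Figure D5:**
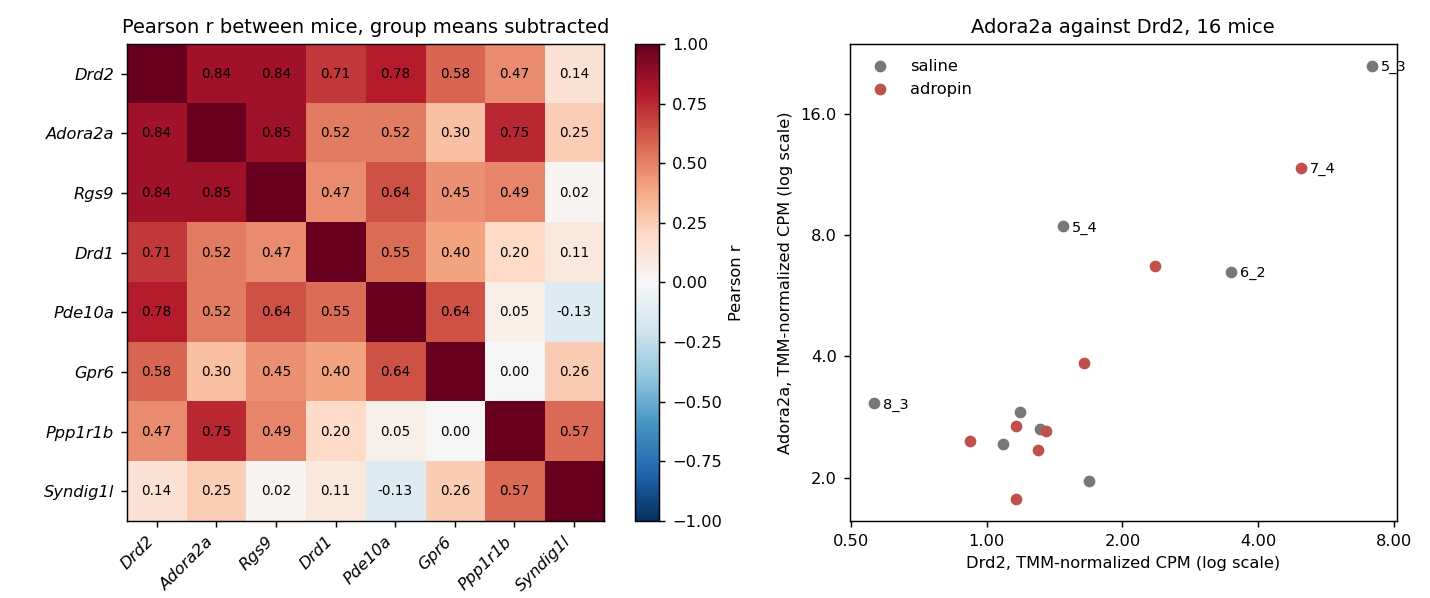
Left, Pearson r between each pair of genes over 16 mice with group means subtracted, from blue (-1) to red (1). Right, Adora2a against Drd2 in TMM-normalized CPM on log scales, 1 point for each mouse; mice 5_3 and 7_4 form the upper right end, and r is 0.836 with them and 0.566 without them.

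The genes whose level followed the mean of the 8 most closely over the 16 mice, by Pearson's r of log2 CPM with group means subtracted, were chosen by rank as a description. Among the 10 closest were Vwa5b1 (r = 0.754), Zfp69 (0.723), Gm10863 (0.703), Cd276 (0.698), Rgs20 (0.693), Wnt1 (0.686), Snx8 (0.680), Ptprv (0.678) and Lair1 (0.648). None of these named genes was on a list of striatal genes used here.

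Other genes of the same neurons were read from lists that hold none of the 8. In the direct pathway list 5 of 6 genes were tested, all but Isl1, and Tac1, the precursor of substance P, had an unadjusted p below 0.05 with a log2 fold change of -0.34. Ebf1, a transcription factor of developing direct pathway neurons, had -0.56 and Pdyn, the prodynorphin gene, 0.06, neither at a p below 0.05. In the indirect pathway list, Grik3, a kainate receptor subunit, had 0.26 with an unadjusted p below 0.05, and Penk, the proenkephalin gene, had -0.47 and Sp9, a transcription factor that indirect pathway neurons need, -0.02, neither at a p below 0.05. All adjusted p-values in these lists were 0.874 or higher (edgeR, Benjamini-Hochberg adjustment), and leaving out single mice put the unadjusted p above 0.05 for Tac1 in 5 of 16 cases and for Grik3 in 8 of 16.

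Of 20 shared projection neuron genes tested, 1 passed the study's cut-off, Six3, a transcription factor of striatal development. Six3 ranged from 0.0731 to 1.55 CPM in adropin-treated mice and from 0.101 to 8.55 CPM in saline-treated mice, where its highest value was again in mouse 5_3 and its highest with adropin in mouse 7_4. Its log2 fold change was -2.13 (adjusted p = 0.874, edgeR with Benjamini-Hochberg adjustment), and -1.41 without mouse 5_3. The median log2 fold change of the 20 was -0.06, from Six3 to Scn4b, a sodium channel subunit, at 0.36. Gpr149 and Ido1 were below the filter.

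The 21 genes of dopamine and cyclic AMP signalling tested, which include Adcy5, the main adenylyl cyclase of the striatum, Gnal, the G protein subunit coupled to Drd1, and Ptpn5, a phosphatase of these neurons, had 0 at an unadjusted p below 0.05 in either direction. Their log2 fold changes ran from -0.09 (Rasgrp2) to 0.31 (Pde7b), with a median of 0.06. Adcy5 had a log2 fold change of 0.09, Gnal one of 0.12 and Ptpn5 one of 0.03. The 3 GABA neuron genes had from -0.0013 (Slc32a1) to 0.08 (Gad1), and the 5 of 10 striatal interneuron genes tested had from -0.27 (Pvalb) to 0.09 (Lhx6), with 0 at an unadjusted p below 0.05 in both lists.

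Levels of the 8 genes were also set against the mean z-scored level of each of 18 lists, which made 144 relations over the 16 mice, with group means subtracted. By Pearson's r 4 had an adjusted permutation p below 0.05, and by Spearman's rho 0 did. Ppp1r1b followed the striatal interneuron list (r = 0.839, permutation p = 0.00012, adjusted p = 0.0173; rho = 0.800, p = 0.00038, adjusted p = 0.0547), and gave 0.728 without mice 7_4 and 8_3. The tested genes of that list, Lhx6, Pvalb, Sst, Npy and Pthlh, also mark interneurons of the cortex. Drd2 followed the shared projection neuron list (r = 0.768, permutation p = 0.00041, adjusted p = 0.0238; rho = 0.756, p = 0.00091, adjusted p = 0.0655; 0.503 without mice 5_3 and 8_3). Adora2a followed the same list (r = 0.756, permutation p = 0.00053, adjusted p = 0.0238; rho = 0.641, p = 0.00884, adjusted p = 0.182; 0.682 without the same mice). Drd1 followed the indirect pathway list (r = 0.759, permutation p = 0.00066, adjusted p = 0.0238; rho = 0.665, p = 0.00606, adjusted p = 0.160; 0.528 without them). With the direct pathway list, by contrast, Drd1 had r = 0.251 (permutation p = 0.348, adjusted p = 0.642; rho = 0.124, p = 0.648, adjusted p = 0.942; 0.134 without mice 5_3 and 6_1). Syndig1l had r = 0.658 with the choroid plexus list (permutation p = 0.00332, adjusted p = 0.0754; rho = 0.685, p = 0.00417, adjusted p = 0.150; 0.604 without mice 4_3 and 8_3) and -0.641 with the cortex list (permutation p = 0.00808, adjusted p = 0.110; rho = -0.726, p = 0.00197, adjusted p = 0.0946; -0.655 without mice 4_3 and 6_1).

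In mouse 5_3 the summed shared projection neuron genes (1625 CPM), the direct pathway genes (81.6 CPM) and the indirect pathway genes (261 CPM) were each the highest of the 16 mice. Its summed cortex genes (3135 CPM) were the lowest, but by the mean z-score, which weights the genes equally, its cortex list ranked 10 of 16 (-0.048). By that z-score the GABA neuron list (1.498) and the hippocampus list (1.27) were also the highest of the 16 in mouse 5_3. In mouse 7_4 the shared projection neuron sum was the third highest (1546 CPM) and the cortex sum the eighth (3478 CPM). By the mean z-score its direct pathway list ranked 6 and its indirect pathway list 9 of 16, while its oligodendrocyte list (1.595) and its striatal interneuron list (0.80) were the highest of the 16 and its astrocyte (0.74) and microglia (0.80) lists ranked 2. The part of these cells in the levels of the 8 genes in mouse 7_4 was not tested. In mouse 8_3 the indirect pathway sum (134 CPM) was the lowest and the direct pathway sum (74.4 CPM) the second highest. By the mean z-score its indirect pathway list was also the lowest (-1.29), and its direct pathway list ranked 4 of 16 (0.37). Most of that indirect pathway sum was Grik3 (78.2 CPM). Penk was 51.8 CPM in mouse 8_3, beside a median of 51.0 CPM in the saline group.

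Of the markers of other regions and cells, 0 had an adjusted p below 0.05 for adropin against saline (edgeR, Benjamini-Hochberg adjustment), and the values below are described by unadjusted p. The 5 choroid plexus genes tested (Ttr, Kl, Clic6, Prlr and Sostdc1) had log2 fold changes from -4.07 to -1.11 and passed the study's cut-off, and each was smaller without mouse 8_3. Without it the log2 fold changes were -1.34 for Ttr, -0.67 for Clic6 and -0.33 for Sostdc1, with an unadjusted p above 0.05, and -0.61 for Kl and -0.73 for Prlr, still below 0.05. In the hippocampus list 9 of 9 genes were below zero, and Lct (-1.23) and Cabp7 (-0.42) had an unadjusted p below 0.05. In the thalamus list Calb2 (-0.89, and -0.52 without mouse 8_3) and Prkcd (-0.28, and -0.18 without it) did, with 2 of 9 genes above zero. Cortex genes were above zero in 8 of 10, with Cux2 (0.31), Rorb (0.35) and Mef2c (0.21) at an unadjusted p below 0.05. In the cerebellum list Car8 had -1.403, and 0.20 without mouse 8_3, and in the microglia list Cx3cr1 had 0.18. Apart from Mef2c, Prkcd, Kl and Prlr, each of these genes had an unadjusted p above 0.05 when some single mouse was left out. The lists of oligodendrocytes (median -0.20), astrocytes (0.05), endothelium (0.08), olfactory bulb (-0.09), midbrain dopamine neurons (-0.18) and hypothalamus (-0.33) held 0 genes at an unadjusted p below 0.05. The part of these regions in the fold changes of the 8 striatal genes was not tested.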

How the data were processed

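Poly-A-selected RNA from brain tissue of 16 mice, 8 in each group, was sequenced. Reads were aligned by the authors with STAR 2.5.1a1 to the Ensembl release 76 assembly (GRCm38), and the authors deposited raw gene counts of uniquely aligned, unambiguous reads from featureCounts 1.4.6-p52. The deposited CPM divide these counts by a library total 0.096% to 0.110% above the listed counts and were not used in a test. Of 40757 entries 276 were identical repeats and were dropped. The authors' comparisons were not used.

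TMM factors were calculated in edgeR 4.0.16 (R 4.3.3). The 14949 genes above 1 CPM in 7 or more mice, without 355 ribosomal RNA genes, entered the quasi-likelihood test of edgeR with no covariate and Benjamini-Hochberg adjustment. Log2 CPM used a prior count of 2, and correlations 100000 permutations. On simulated counts with 200 of 14949 genes changed, 192 were recovered with 5 false calls. Alternatives were DESeq2 1.42.0, limma-voom (limma 3.58.1), other size factors and filters, ribosomal RNA genes kept, the shared projection neuron list as a covariate, label numbers as blocks and leaving out mice. Exon lengths and positions came from GENCODE on GRCm38. Replicates were numbered in accession order. Named genes were all 8, genes of the other lists past the study's cut-off or at its p, the lowest and highest of each, the 10 nearest genes and Six3, and others were named after their values were seen. The results of some genes this rule names are not reported here. The 8 genes and the lists were chosen with earlier results of these data known.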

Additional observations from a re-analysis of the deposited data

Results flagged for a closer look

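In 22 groups of 8 mice examined for a mouse whose gap to its nearest neighbour was large for the range of the group, 4 held such a mouse. The count of about 1.1 given by chance assumes normally distributed values, which was not tested. These 4 were flagged on CPM, not on log2 CPM, and all were in mice 5_3 and 7_4. Drd2, Adora2a and Rgs9 were correlated between mice, so the 4 are not independent and the counts cannot show an excess. Drd2 was 4.99 CPM in adropin-treated mouse 7_4, beside 2.36 CPM in the next highest mouse of that group. Drd2 was 7.16 CPM in saline-treated mouse 5_3, beside 3.48 CPM in the next. Adora2a was 21.0 CPM in the same mouse 5_3, beside 8.40 CPM. Rgs9 was 25.1 CPM in mouse 7_4, beside 17.6 CPM.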

How the results depend on the processing

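Across all settings tried, 0 of the 8 genes had an adjusted p below 0.05 or passed the study's cut-off. With the first label number as a replicate block, the log2 fold changes of Drd2 (0.13), Adora2a (0.16) and Ppp1r1b (0.036) changed sign, as did that of Rgs9 (-0.051) with the second. The numbers did not clearly pair the mice: over all genes, 2 of 5 pairs sharing the first number and 7 of 17 sharing the second had deviations correlated above 0.1. Of the 8 adropin-treated mice, 1 and 2 correlated best with a mouse of their own number. With so few pairs this check cannot settle what the numbers mean. With the second number as a block, 2 of the 14949 genes tested had an adjusted p below 0.05 (edgeR), where the main fit gave 0. Leaving out each mouse in turn gave log2 fold changes of -0.67 to 0.27 for Drd2, -0.93 to 0.11 for Adora2a, -0.076 to 0.22 for Rgs9 and -0.043 to 0.13 for Gpr6, an SD of Drd2 of 0.76 to 0.98, 0 to 1 genes at an unadjusted p below 0.05 (Pde10a without mouse 5_3), and 5 (without mouse 5_3) to 14 (without saline-treated mouse 6_1) correlated pairs. It gave r of -0.172 to 0.227 for Ppp1r1b and Pde10a, -0.156 to 0.114 for Ppp1r1b and Gpr6, -0.101 to 0.175 for Rgs9 and Syndig1l and -0.253 to 0.0364 for Pde10a and Syndig1l. With library size only, r was -0.00388 for Ppp1r1b and Pde10a, -0.00297 for Ppp1r1b and Gpr6 and -0.00642 for Rgs9 and Syndig1l, and with group means kept it was -0.0104 for Ppp1r1b and Gpr6. With mice 5_3 and 7_4 both left out, chosen after seeing the data, 0 pairs had an adjusted p below 0.05, 1 gene (Pde10a) had an unadjusted p below 0.05, the SDs of Drd2, Adora2a and Rgs9 were 0.61, 0.70 and 0.28, and r was -0.160 for Drd1 and Ppp1r1b, -0.00338 for Adora2a and Gpr6, -0.334 for Ppp1r1b and Pde10a, -0.316 for Ppp1r1b and Gpr6 and -0.184 for Rgs9 and Syndig1l. The cause of these changes was not tested. Depth limits Drd2 most, with 26 to 316 counts per mouse.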
